A study of Mus musculus with 6 samples.

Results

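The 10 genes described here encode transcription factors of hematopoietic stem cell identity: Hlf, Meis1, Mecom, Prdm16, Mllt3, Gata2, Tal1, Lyl1, Erg and Runx1. They were taken by gene name from the scanner files, which gave 15 of the 55681 probes that are not controls and 10 of 34821 gene names. RNA came from LSK cells, a sorted fraction without lineage markers that carries Sca-1 and c-Kit and holds stem cells and multipotent progenitors. The cells came from NIKaly/aly mice, whose NF-kB-inducing kinase (NIK, encoded by Map3k14) carries the disabling aly point mutation in every cell of the animal, and from wild-type mice. Each genotype gave 3 samples, numbered 2, 4 and 6 for NIKaly/aly and 1, 3 and 5 for wild type, with 1 sample per one-colour array. Age, sex and pooling of animals are not given in the sources used here. The labels do not state that each sample is a separate animal, so the p-values rest on sample-to-sample spread that could be technical.

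Stem cell identity rests on a network of factors that bind one another's genes. Tal1 and Lyl1 are related basic helix-loop-helix proteins, Gata2 is a zinc finger protein, Erg is an ETS protein and Runx1 binds DNA with its partner Cbfb; with Fli1 and the bridging protein Lmo2 they occupy shared sites in blood progenitors. Hlf, a PAR bZIP factor, Meis1, a homeodomain partner of Hox and Pbx proteins, and Mecom and Prdm16, related zinc finger proteins with a PR domain, are needed to keep stem cells in number. Mllt3 is a chromatin reader tied to transcript elongation. The comparison asks whether loss of NIK function, and with it of alternative NF-kB signalling, moves the transcripts of this network.

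The 10 genes did not separate the genotypes. All 10 passed the filter for signal (above background by the scanner's call on 3 or more of 6 arrays), 5 read higher and 5 lower in NIKaly/aly, and 0 passed an adjusted p of 0.05 in limma with Benjamini-Hochberg adjustment, where 0% of the 15684 tested genes did. The median difference of the 10 was -0.002 on the log2 scale, beside -0.008 over all tested genes. Each member's adjusted p was 0.99998 in limma. At an unadjusted p under 0.05 there were 0 members in limma, beside 1.33% of all tested genes, and the lowest unadjusted p of a member was 0.28. The groups overlapped for 10 of 10 members, while they did not overlap for 4.57% of all tested genes. The number of arrays limits the precision: the 95% intervals of the differences ran from -0.47 to 0.72 for Tal1, the narrowest, and from -1.62 to 2.16 for Mecom, the widest.

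In 4 of the genes more than 1 probe was printed on the array, and the probes did not all read alike, so the stretch of transcript that each detects is shown here. Each line gives the first 30 of a probe's 60 bases in the sense of the transcript, as the scanner files list them.
Mecom A_55_P2111172: gttttgtccctggacacatccttgggaagg
Mecom A_51_P482148: cccgcttgaagctttgaaagaaaaatactt
Mecom A_55_P1981639: ataaaatgtgcaggtgtgacggacgacttt
Mllt3 A_55_P2157048: gcagccagtgtggtactcatttcttcttaa
Mllt3 A_55_P2157038: ttcttgaaggtggacacattacatctggta
Erg A_55_P2015862: caccatgtatgatgtcatttgaagggaaac
Erg A_55_P2113832: tgcttgttttctttgaaatcagattcgttc
Runx1 A_55_P2183438: caggagggcccttggaggccaccaggaaga
Runx1 A_51_P206585: tgtgcatcgtgtcactgtaaatgtaatggt
On the mm9 build the 3 Mecom probes lie on the minus strand at chr3:30135491-30135550, chr3:29876185-29876244 and chr3:30445665-30445724, in the order given, with 569480 bases between the outermost starts. The files place the first on transcript variant 2 of Mecom, the second on variant 1 and the third on another transcript of the locus. The Mllt3 probes, at chr4:87418870-87418929 and chr4:87480793-87480852 on the minus strand, lie 61923 bases apart. The Runx1 probes, at chr16:92605785-92605844 and chr16:92604413-92604472 on the minus strand, lie 1372 bases apart, and the Erg probes, at chr16:95581954-95582013 and chr16:95581811-95581870 on the minus strand, only 143. The other 6 genes have 1 probe each. Whether a probe lies in coding sequence or in a UTR is not given in the files.

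Levels are log2 signal after the 75th percentile of the same array was subtracted. A probe's level is set only against itself on other arrays, not against other probes.

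Hlf, which marks stem cells and is known to hold them in quiescence, had the largest difference of the 10. Its probe (chr11:90200696-90200755, minus strand) read 4.21, 4.97 and 5.43 in NIKaly/aly 2, 4 and 6, against 4.21, 4.62 and 4.51 in wild type 1, 3 and 5. NIKaly/aly 6 and 4 stood above every wild-type sample, and NIKaly/aly 2 lay at the bottom with wild type 1. The difference was 0.42 ± 0.37 (SE, n = 3 per genotype; limma, adjusted p = 0.99998). Leaving out NIKaly/aly 6 gave 0.14 and leaving out NIKaly/aly 2 gave 0.75; in samples 2 to 5 alone it was 0.02.

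Meis1, the cofactor of Hox proteins, was the only member that read higher in NIKaly/aly in each of the consecutively numbered sample sets 2 and 1, 4 and 3, and 6 and 5; among all tested genes 13.8% did. Its probe (chr11:18780695-18780754, minus strand) read 5.16, 5.55 and 5.48 in NIKaly/aly 2, 4 and 6, against 4.70, 5.30 and 5.27 in wild type 1, 3 and 5. Wild type 1 was lowest and NIKaly/aly 2 fell between it and the other wild-type samples, so the groups overlapped. The difference was 0.30 ± 0.31 (SE; limma, adjusted p = 0.99998), and 0.11 without wild type 1. Its probe was well above background on 6 of 6 arrays.

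Mecom, the locus of the Evi1 zinc finger protein and its longer PR-domain form, varied most of all. The variant 2 probe, the only one tested, read -2.38, 0.01 and 1.13 in NIKaly/aly 2, 4 and 6, against -1.36, -0.44 and -0.27 in wild type 1, 3 and 5. NIKaly/aly samples held both the lowest and the highest value, and the probe was not well above background in NIKaly/aly 2 or wild type 1. The difference was 0.27 ± 0.82 (SE; limma, adjusted p = 0.99998). Leaving out 1 sample gave 1.26 for NIKaly/aly 2, -0.50 for NIKaly/aly 6 and -0.06 for wild type 1. The variant 1 probe was well above background only in NIKaly/aly 4 (-1.74) and wild type 3 (-2.75), and the third probe on 0 of 6 arrays, so neither was tested. The tested probe lies 259306 bases upstream of the variant 1 probe on this minus-strand locus. The Mecom result is therefore one of variant 2, and its values are not taken as levels of variant 1 or of Evi1.

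Prdm16, the relative of Mecom that stem cells need for their maintenance, was well above background on 5 of 6 arrays, all but NIKaly/aly 6. Its probe (chr4:153690254-153690313, minus strand) read -2.25, -1.14 and -1.37 in NIKaly/aly 2, 4 and 6, against -0.98, -1.41 and -1.22 in wild type 1, 3 and 5. NIKaly/aly 2 stood alone at the low end, and the other 5 values ran from -1.41 to -0.98. The difference was -0.38 ± 0.43 (SE; limma, adjusted p = 0.99998). It was -0.05 without NIKaly/aly 2 and 0.06 in samples 3 to 6 alone.

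Mllt3, the elongation-linked reader, hardly differed within the consecutive sample sets and differed widely between them. Its brighter probe read -0.93, -0.02 and 0.20 in NIKaly/aly 2, 4 and 6, against -0.85, 0.06 and 0.24 in wild type 1, 3 and 5. NIKaly/aly was lower by 0.05 to 0.08 in each set, as 16.2% of all tested genes were lower in each, while the sets' means spanned 1.11. The difference was -0.07 ± 0.44 (SE; limma, adjusted p = 0.99998). The dimmer probe was well above background on 1 NIKaly/aly and 2 wild-type arrays and differed by -0.25 ± 0.72.

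**Figure D1:**
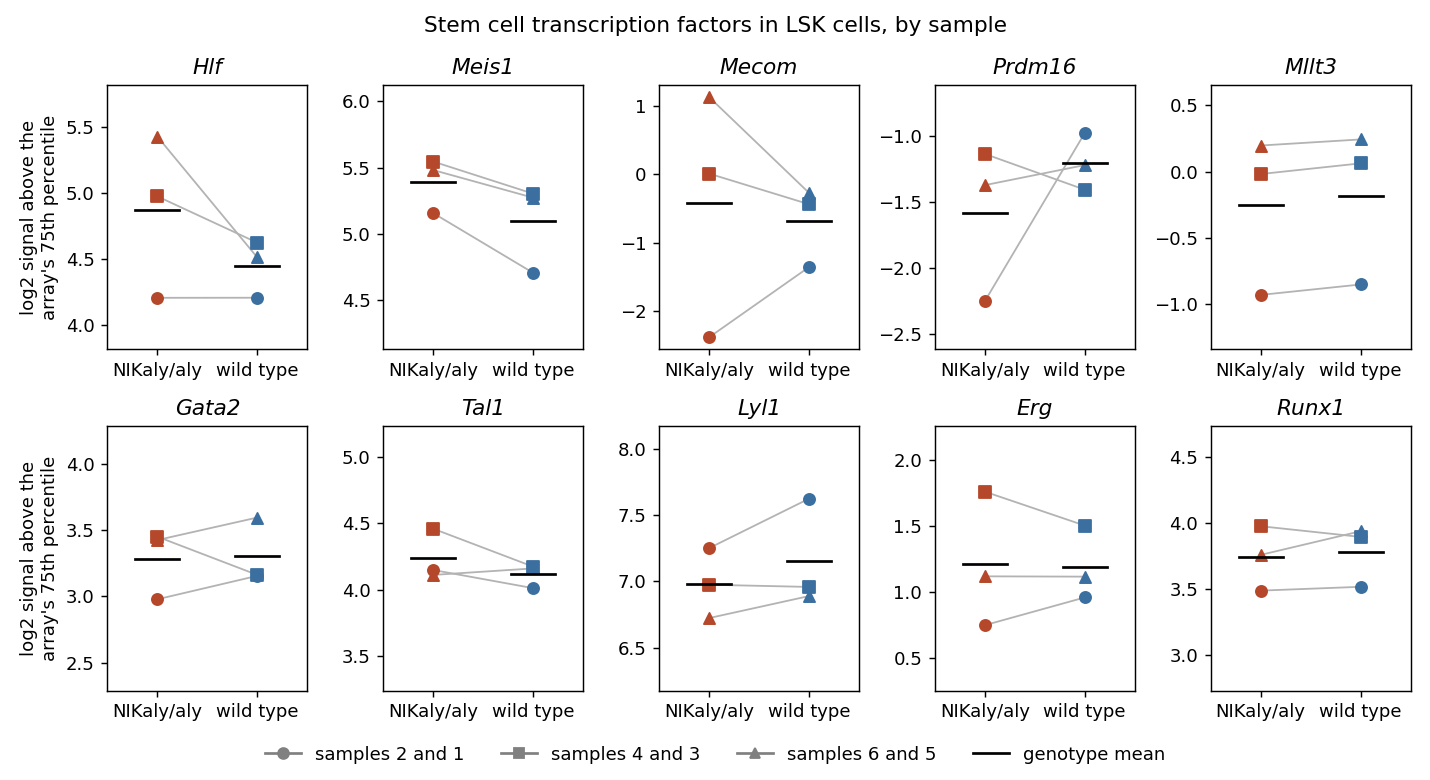
Log2 signal above the array's 75th percentile (vertical axis) for the gene-level probe of each of the 10 genes, NIKaly/aly samples on the left and wild-type samples on the right of each panel. Symbols and grey lines join consecutively numbered samples and black bars are genotype means; each vertical axis spans at least 2 log2 units. The symbols for samples 2 and 1 lie lowest in most panels in both genotypes, and the groups overlap in all 10.

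Gata2, needed for stem cell survival and also used by mast cells, read 2.98, 3.45 and 3.43 in NIKaly/aly 2, 4 and 6, against 3.16, 3.16 and 3.60 in wild type 1, 3 and 5 (chr6:88156362-88156421, plus strand). The values of both genotypes interleaved. The difference was -0.02 ± 0.28 (SE; limma, adjusted p = 0.99998), with a 95% interval of -0.66 to 0.62.

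Tal1, which starts the blood programme in the embryo, had the smallest spread within a genotype of the 10. It read 4.15, 4.46 and 4.11 in NIKaly/aly 2, 4 and 6, against 4.01, 4.17 and 4.16 in wild type 1, 3 and 5 (chr4:114744219-114744278, plus strand). Its SD within a genotype was 0.15, and only 3.47% of all tested genes had a lower one. The difference was 0.12 ± 0.26 (SE; limma, adjusted p = 0.99998), and 0.015 without NIKaly/aly 4.

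Lyl1, the relative that can stand in for Tal1 in adult stem cells, was highest in sample 2 of NIKaly/aly and in sample 1 of wild type. It read 7.25, 6.98 and 6.72 in NIKaly/aly 2, 4 and 6, against 7.63, 6.96 and 6.89 in wild type 1, 3 and 5 (chr8:87228531-87228590, plus strand). Wild type 1 was highest and NIKaly/aly 6 lowest. The difference was -0.17 ± 0.36 (SE; limma, adjusted p = 0.99998), and 0.06 without wild type 1.

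Erg, the ETS factor that is also used by endothelium, read 0.75, 1.76 and 1.12 in NIKaly/aly 2, 4 and 6 by its brighter probe, against 0.96, 1.51 and 1.12 in wild type 1, 3 and 5. The difference was 0.02 ± 0.33 (SE; limma, adjusted p = 0.99998). The dimmer probe, 143 bases away, read -1.22, -0.19 and -1.61 in NIKaly/aly 2, 4 and 6, against -1.21, -0.05 and -0.51 in wild type 1, 3 and 5. The probes parted in samples 6 and 5, where the brighter differed by 0.00 and the dimmer by -1.10, and NIKaly/aly 6 was the array on which the dimmer one was not well above background. Its difference was -0.42 ± 0.49 (SE; limma over 21220 probes, adjusted p = 0.99998), where 0% of all tested probes and 0 of 13 tested member probes passed. Leaving out 1 sample moved it between -0.83, without NIKaly/aly 4, and -0.11, without NIKaly/aly 6.

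Runx1, the factor by which stem cells first form, had a difference near 0 by both probes. The brighter read 3.49, 3.98 and 3.76 in NIKaly/aly 2, 4 and 6, against 3.52, 3.89 and 3.94 in wild type 1, 3 and 5. The second read 1.69, 2.21 and 1.998 in NIKaly/aly 2, 4 and 6, against 1.73, 2.31 and 1.91 in wild type 1, 3 and 5. Both were lowest in samples 2 and 1 of either genotype. Within the other sets the brighter and the second probe went opposite ways. They differed by 0.08 and -0.10 in samples 4 and 3, and by -0.18 and 0.09 in samples 6 and 5. The differences were -0.04 ± 0.28 and -0.02 ± 0.29 (SE; limma, adjusted p = 0.99998 each).

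**Figure D2:**
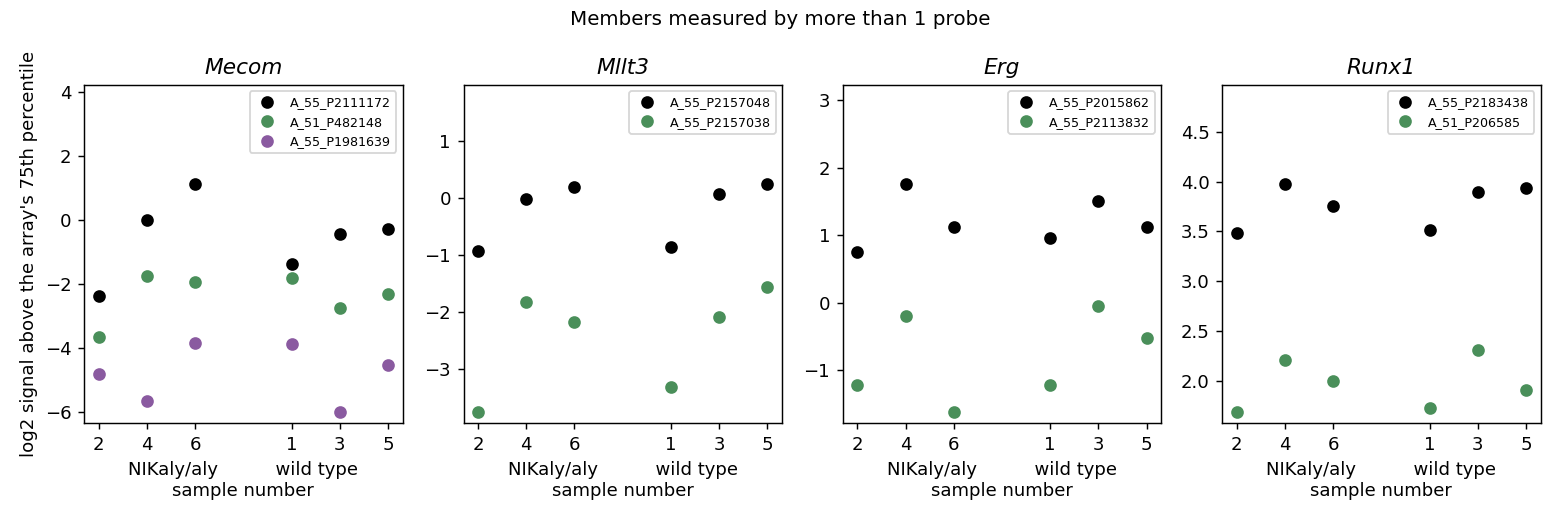
Log2 signal above the array's 75th percentile (vertical axis) for every probe of the 4 genes with more than 1 probe, by sample number with NIKaly/aly samples left of wild-type samples. The Runx1 probes follow each other across samples, the dimmer Erg probe is lowest in NIKaly/aly 6 while the brighter one is not, and the lowest Mecom probe was well above background on 0 of 6 arrays.

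**Figure D3:**
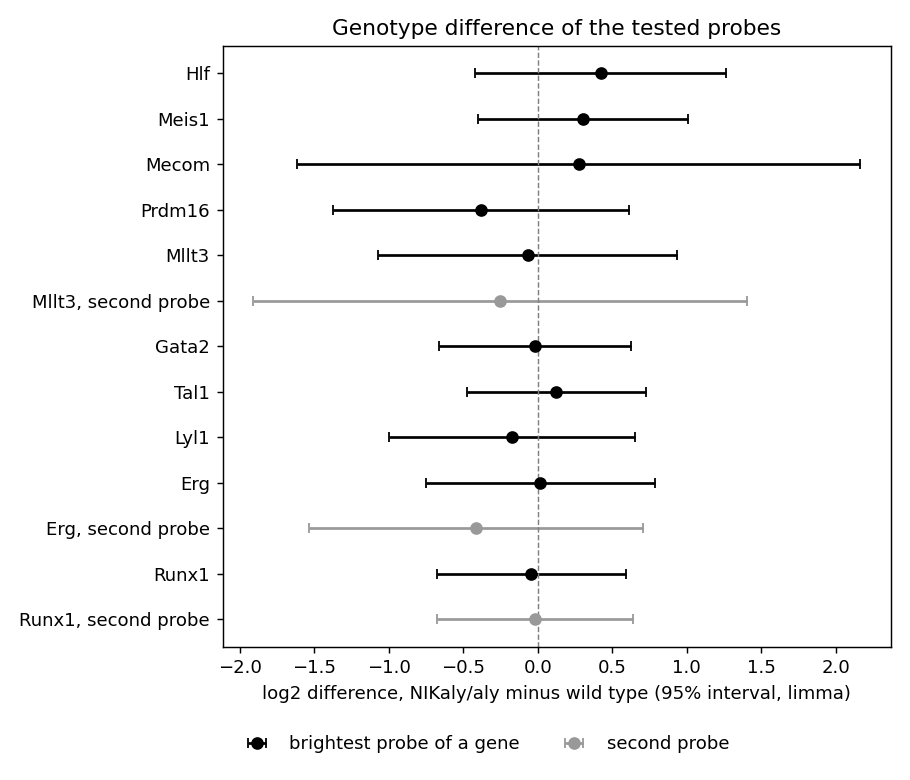
Log2 difference, NIKaly/aly minus wild type, of the 13 tested member probes (points) with 95% intervals from limma (bars); black marks a gene's brightest probe and grey a second probe. All 13 intervals include 0, and Mecom's is the widest.

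The members, like most tested genes, differed more between the consecutively numbered sample sets than between the genotypes within a set. The means of the 3 consecutive sample sets spanned a median of 0.56 log2 units over the 10 members, against a median absolute difference of 0.20 between the genotypes within a set. Over all tested genes both were larger, at 0.85 and 0.29. The range of set means exceeded the difference within sets for 9 of 10 members, all but Prdm16, a share near the 86.7% of all tested genes. The mean of NIKaly/aly 2 and wild type 1 was the lowest of the 3 set means for 9 of 10 members, beside 28.6% of all tested genes. The single samples did not all follow their mean, since Prdm16 was highest of all in wild type 1. For Lyl1 that mean was the highest, as for 8758 of the 15684 tested genes. The labels do not call these samples pairs. With the sets fitted as a block, 0 members passed in limma (lowest adjusted p = 0.618, for Meis1), while 0.0128% of all tested genes did. At an unadjusted p under 0.05 in that fit there were 2 members, Meis1 (0.30 ± 0.12, unadjusted p = 0.034 in limma) and Hlf (0.42 ± 0.18, unadjusted p = 0.048 in limma), beside 7.35% of all tested genes.

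Marker lists of other cells also varied across the samples, in patterns that differed from list to list. Sums here are the log2 of summed unlogged levels, so the brightest genes of a list weigh most. The sum of 7 tested of 10 listed erythroblast genes was 9.87, 3.83 and 6.99 in NIKaly/aly 2, 4 and 6, against 11.3, 4.66 and 6.39 in wild type 1, 3 and 5. Hbb-b1, an adult globin gene, read 6.51, 2.47 and 3.18 in NIKaly/aly 2, 4 and 6, against 7.61, 2.48 and 2.90 in wild type 1, 3 and 5, and S100a9, of neutrophil granules, 10.84, 9.54 and 11.18 in NIKaly/aly, against 11.84, 9.32 and 10.91 in wild type. The sum of 10 neutrophil genes, all tested, was 12.10, 10.28 and 11.97 in NIKaly/aly 2, 4 and 6, against 12.89, 10.16 and 11.76 in wild type 1, 3 and 5, so that samples 4 and 3 stood apart. The sum of 7 tested of 9 monocyte, macrophage and dendritic cell genes was 6.39, 7.28 and 7.44 in NIKaly/aly, against 6.91, 7.45 and 7.75 in wild type, lowest in samples 2 and 1 where the erythroblast sum was highest. The sum of 11 tested of 12 B cell genes ran from 4.30 to 6.44 in NIKaly/aly and from 5.35 to 7.36 in wild type. By the genotype means, every tested gene of these lists read lower in NIKaly/aly: 7 of 7 erythroblast genes (median difference -0.28), 10 of 10 neutrophil genes (-0.17), 7 of 7 monocyte, macrophage and dendritic cell genes (-0.57) and 11 of 11 B cell genes (-0.75). Beside these stand 8073 of 15684 tested genes that read lower, and 0 genes of the lists passed the threshold in limma, as 0 of all tested genes did. Lower in all 3 consecutive sample sets were 2 erythroblast, 5 neutrophil, 5 monocyte, macrophage and dendritic cell and 2 B cell genes. Among all tested genes 16.2% were. Wild type 1 held the highest erythroblast, neutrophil and B cell sums of all arrays, and the genotype means rest in part on it. Without wild type 1 the difference turned positive for Hbb-b1 (1.37) and S100a9 (0.40). It stayed negative for the B cell gene Cd79a (-0.35) and for Csf1r (-0.91). Other lists were mixed: 6 of 8 tested T and NK cell genes and 2 of 6 tested megakaryocyte genes read lower. Of mast cell and basophil genes 4 of 5 read lower, as did 4 of 5 endothelial and stromal genes. Of 5 tested of 7 mast cell and basophil genes, which bear on Gata2, the sum ran from 3.03 to 5.13 in NIKaly/aly and from 3.46 to 5.20 in wild type, with Cma1 and Ms4a2 failing the signal filter. Of 8 endothelial and stromal genes, which bear on Erg, Tal1 and Gata2, 5 were tested, with a sum of 3.31 to 4.59 in NIKaly/aly and 3.37 to 4.54 in wild type; Cdh5, Col1a1 and Col3a1 failed the filter. Their part in the members' levels was not tested. In bulk RNA, fewer cells of a type and less RNA per cell cannot be told apart.

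**Figure D4:**
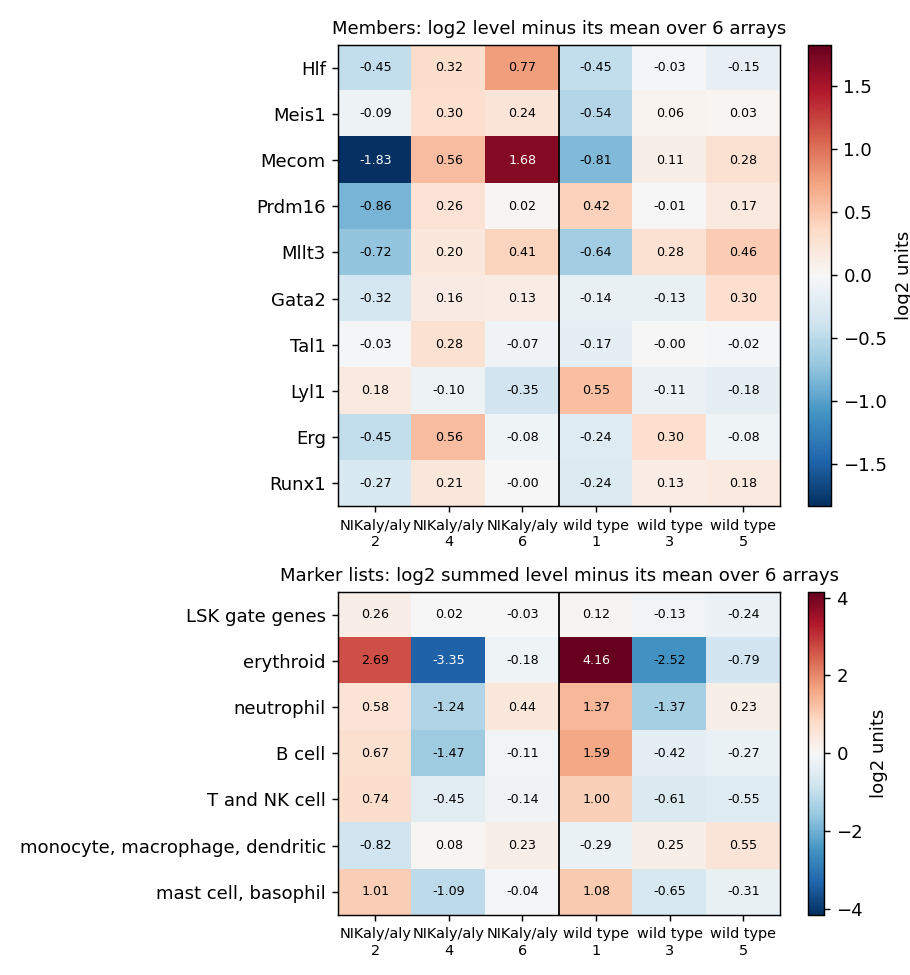
Heat maps of each member's log2 level (upper) and of each marker list's log2 summed level (lower), as the deviation from its mean over the 6 arrays, with NIKaly/aly samples left of the black line and wild-type samples right of it; each panel has its own colour scale. NIKaly/aly 2 and wild type 1 are low for most members and high for the erythroid list.

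The sort's own genes were present. Kit was well above background on all 6 arrays at 4.66, 5.17 and 5.45 in NIKaly/aly 2, 4 and 6, against 4.65, 5.20 and 4.88 in wild type 1, 3 and 5. Ly6a, which encodes Sca-1, read 2.94, 2.44 and 1.503 in NIKaly/aly and 3.67, 2.79 and 2.45 in wild type (difference -0.68 ± 0.46, SE; limma, adjusted p = 0.99998). Leaving out NIKaly/aly 2 put the Ly6a difference at -0.998, and leaving out NIKaly/aly 6 put it at -0.28. Of the 11 listed gate genes, 10 were tested; Slamf1 failed the signal filter. Signal was well above background on 33.7% to 43.8% of non-control spots in NIKaly/aly and on 33.1% to 45.6% in wild type, and the scanner's quality summary marked NIKaly/aly 6 and wild type 1 for evaluation. Map3k14 is mutated at 1 base, so its level does not check the labels (difference 0.31 ± 0.48, SE; limma, adjusted p = 0.99998).

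Genes of proteins that work with the members gave 0 calls with all 6 samples in the planned fit. Of 9 partners at shared sites, 5 read higher and 4 lower (median 0.01) and 0 passed. Tcf12, an E protein that pairs with Tal1 and Lyl1, read 0.57, 0.74 and 0.54 in NIKaly/aly 2, 4 and 6, against 0.21, 0.51 and 0.16 in wild type 1, 3 and 5, and Lmo2 read 7.02, 7.14 and 7.15 in NIKaly/aly, against 6.84, 7.002 and 6.60 in wild type. Neither overlapped between groups by its brightest probe, with differences of 0.32 ± 0.26 and 0.29 ± 0.31 (SE). The mean of all tested Tcf12 probes differed less, by 0.17 (limma, unadjusted p = 0.53, adjusted p = 0.9999). Among all tested genes 4.57% did not overlap. The genes named here have the smallest p of their lists, a choice that favours groups without overlap. Ldb1, which joins Lmo2 complexes, differed by -0.26 ± 0.26. Of 6 Meis1 partners, 3 read higher and 3 lower (median 0.07) and 0 passed. Pbx3, a homeodomain partner, read 0.34, 0.42 and 0.38 in NIKaly/aly and -0.39, -0.12 and 0.18 in wild type without overlap (0.49 ± 0.28); Hoxa9 differed by 0.22 ± 0.46 and Hoxa10 by 0.18 ± 0.33.

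Of the 3 PAR bZIP relatives and rivals of Hlf, 1 read higher and 2 lower (median -0.08) and 0 passed. Nfil3, a repressor at the same kind of site, differed by -0.36 ± 0.41 (SE), and by -0.70 without NIKaly/aly 2 and -0.065 without wild type 1. Dbp differed by -0.08 ± 0.34 and Tef by 0.02 ± 0.28. Of 7 corepressors and methyltransferases that bind Mecom or Prdm16, 2 read higher and 5 lower (median -0.10) and 0 passed, with the deacetylase gene Hdac1 at -0.42 ± 0.32, the methyltransferase genes Suv39h1 at -0.21 ± 0.32 and Ehmt2 at -0.16 ± 0.33. Averaged over all its tested probes, Hdac1 differed by -1.25 (limma, unadjusted p = 0.0032, adjusted p = 0.9999), and leaving out 1 sample moved its brightest probe between -0.64, without NIKaly/aly 2, and -0.24, without NIKaly/aly 6. Of 9 elongation and Dot1l complex genes around Mllt3, 8 were tested, 2 read higher and 6 lower (median -0.07) and 0 passed. Mllt1, the relative of Mllt3, differed by -0.31 ± 0.37, Mllt10 by -0.13 ± 0.31 and the cyclin gene Ccnt1 by 0.16 ± 0.40.

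Of 24 other stem and progenitor transcription factors, 17 read higher and 7 lower (median 0.09), beside 48.5% higher over all tested genes, and 0 passed. Nkx2-3, a homeodomain factor, read 2.38, 2.29 and 2.82 in NIKaly/aly 2, 4 and 6, against 1.84, 2.07 and 1.72 in wild type 1, 3 and 5, with no overlap (0.62 ± 0.27, SE; limma, adjusted p = 0.99998). Cebpa, the granulocyte-monocyte factor, overlapped and differed by -0.69 ± 0.36, and Bmi1, the Polycomb gene that stem cells need to self-renew, by 0.36 ± 0.28. Of 14 genes known as targets of members, 13 were tested, 5 read higher and 8 lower (median -0.07) and 0 passed. Vwf, the von Willebrand factor gene of platelet-primed stem cells, read 1.37, 1.78 and 1.83 in NIKaly/aly, against 2.24, 2.40 and 2.26 in wild type (-0.64 ± 0.26). Procr, a stem cell surface receptor gene, and Csf1r, the macrophage growth factor receptor gene that Runx1 controls, differed without overlap by 0.78 ± 0.28 and -1.17 ± 0.33. These genes too were named for the smallest p of their lists, and 4.57% of all tested genes did not overlap. Cd34, in the gate list, differed by 0.31 ± 0.35.

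Across the 6 arrays Runx1 was the nearest member of 5 of the other 9. By the root mean square difference of centred log2 levels, it was nearest to Meis1 (0.19), Gata2 (0.14), Tal1 (0.15), Erg (0.21) and Mllt3 (0.32). For Runx1 itself Gata2 was nearest. Hlf was nearest to Meis1 (0.28), Prdm16 to Gata2 (0.33) and Mecom to Mllt3 (0.72), whereas Lyl1 had no member closer than Tal1 at 0.37, near the 0.40 that was its median distance to all other tested genes. The nearest tested gene outside the list was Smek1 (now Ppp4r3a) for Meis1, Prkg1 for Gata2, Slc39a9 for Prdm16, Ccdc102a for Tal1, Rnase6 for Lyl1, Cul9 for Erg and Ppp1r12c for Runx1, at 0.03 to 0.11. It was C330021F23Rik (now Rps23rg1) for Hlf, and entries without a gene name for Mecom and Mllt3. These are descriptions over 6 arrays that share a slide.

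The promoter of Lyl1 is shown beside one of Tal1, the related helix-loop-helix gene, to set the GATA and ETS letters of both side by side. Of the 10 members, 10 matched a RefSeq promoter by symbol; both are RefSeq sequences on GRCm38.p6, from 250 bases before to 50 after a start site, with capitals at CCGGAA, the core of many ETS sites, and at AGATAA, which Gata proteins bind, on either strand.
Lyl1: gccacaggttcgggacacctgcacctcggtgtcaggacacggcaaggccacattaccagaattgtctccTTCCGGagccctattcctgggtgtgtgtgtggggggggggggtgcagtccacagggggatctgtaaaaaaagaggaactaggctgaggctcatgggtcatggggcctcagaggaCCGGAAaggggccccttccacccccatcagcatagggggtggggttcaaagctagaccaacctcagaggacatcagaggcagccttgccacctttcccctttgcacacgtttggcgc
Tal1: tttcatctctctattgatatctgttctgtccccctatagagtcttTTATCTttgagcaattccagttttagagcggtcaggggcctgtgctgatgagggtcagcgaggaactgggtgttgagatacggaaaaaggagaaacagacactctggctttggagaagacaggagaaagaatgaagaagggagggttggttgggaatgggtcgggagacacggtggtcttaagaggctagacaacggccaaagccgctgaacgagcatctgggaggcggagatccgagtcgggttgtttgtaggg
The Lyl1 window is chr8:84701207-84701506 on the plus strand and the Tal1 window chr4:115056176-115056475 on the plus strand, the first of 2 listed for Tal1. Lyl1 held CCGGAA at 2 places and this Tal1 window held AGATAA at 1, while the second Tal1 window held neither. CCGGAA was also in a window each of Hlf, Meis1 and Runx1, and AGATAA in one of Erg. Over the 17 RefSeq promoters of the 10 genes, CCGGAA was in 4 (23.5%), beside 14.9% of all 32851 promoters, and AGATAA in 2 (11.8%), beside 11.2%. The E-box CANNTG, bound by Tal1 and Lyl1 with E proteins, was in 11 (64.7%), beside 72.3%. Each motif was searched on both strands and counted on its own, also where matches of different motifs overlap. A match is a run of letters in this window and not a site shown to be bound.

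**Figure D5:**
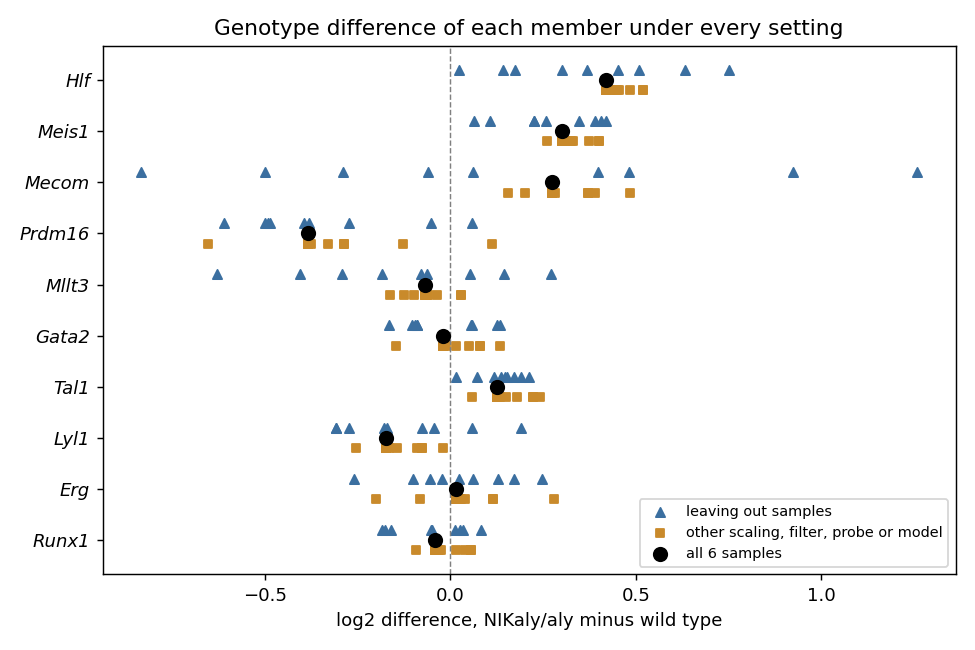
Log2 difference, NIKaly/aly minus wild type (horizontal axis), of each of the 10 genes with all 6 samples (black), when samples are left out (blue triangles) and under other scalings, filters, probe choices or models (orange squares). Hlf, Meis1 and Tal1 stay above 0 in all 21 alternatives, and the other 7 genes fall on both sides. Mecom and Prdm16 have 20 alternatives, since they fail the filter for signal well above background on all arrays.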

How the data were processed

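The labels describe one-colour arrays of LSK cell RNA. Per the file headers, spot intensity is the output of Agilent Feature Extraction 10.7.3.1, and probes are placed on mm9. The authors' deposited series table holds a ratio, the processed signal divided by its array's median (column medians 1); it served as an alternative. Here the 75th percentile of log2 processed signal over the 59305 spots that are not controls was subtracted on every array. Outlier-flagged spots were dropped and repeated spots averaged; 0 spots were saturated. Probes called well above background on 3 or more arrays were kept (21220 with complete values), and the brightest probe stood for its gene (15684 genes). The test was limma 3.58.1 under R 4.3.3 (lmFit, then eBayes with an intensity trend), with Benjamini-Hochberg adjustment over every tested gene or probe. It was run on simulated data with independent noise. That noise had a smaller SD than the median of 0.50 within a genotype here, and no differences between sample sets. The simulation therefore does not check the test under the conditions of these arrays. All arrays share 1 slide and 1 scan. Members and lists were chosen with earlier results of these data known. The text names all members, up to 3 genes per partner or target list with the smallest p, the nearest gene and member, and check genes. Genotypes share no replicate number. Scaling, background, filter, probe choice, array weights, slide position and left-out samples were varied. The use of samples 2 to 5 alone, which leaves out NIKaly/aly 6 and wild type 1, was chosen after seeing the data.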

Additional observations from a re-analysis of the deposited data

How the results depend on the processing

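Over 21 alternatives 0 members passed the threshold, and Hlf, Meis1 and Tal1 kept their direction in each. Mecom and Prdm16 were fitted in 20, since they failed the filter for signal well above background on all arrays. The lowest adjusted p of a member was 0.053 (Prdm16, limma with slide column as a random block) and 0.618 otherwise. In that random block fit alone, which called 1378 genes, 9 named genes outside the members passed in limma: Csf1r (adjusted p = 0.0017), Nkx2-3 (0.0073), Procr (0.0086), Vwf (0.010), Cebpa (0.018), Ly6a (0.020), Bmi1 (0.028), Pbx3 (0.036) and Hdac1 (0.049). Each slide column held samples of 1 genotype only, so that fit cannot tell column from genotype. Its p-values and calls are therefore not taken as evidence of a genotype difference. Over all genes, where 0 passed in limma (208 at an unadjusted p under 0.05), the count was 10 genes and 5 probes with median scaling or the authors' table, 1 and 1 with normexp, 2 and 12 with no filter, 5 genes with array weights, 2 and 2 with consecutive samples as a pair block, 2 and 1 in samples 2 to 5 only, and 1378 and 1876 with slide column as a random block, whose estimated correlation was -0.875. Leaving out 1 sample gave 0 to 1 genes and 0 to 1 probes. Median scaling put 64.6% of tested genes higher in NIKaly/aly, beside 48.5%. Cause was not tested for any of these.
Differences that changed sign were, with median scaling or the authors' table, Gata2 0.079, Mllt3 0.030, Runx1 0.057, Dbp 0.020 and the second Runx1 probe 0.083. With quantile normalization Gata2 was 0.015. With normexp Gata2 was 0.050, Runx1 0.015, Dbp 0.0041 and the second Runx1 probe 0.037. Averaging all probes of a gene, Erg was -0.20. With array weights Gata2 was 0.13, Prdm16 0.11, Runx1 0.041, Tef -0.17 and the second Mllt3 probe 0.032. In samples 3 to 6 Gata2 was 0.059, Prdm16 0.059, Tef -0.061, Suv39h1 0.063, Mllt10 0.048, Hbb-b1 0.14 and S100a9 0.25. In samples 1 to 4 Mecom was -0.29, Gata2 0.056, Runx1 0.026, Hoxa9 -0.0097, Tef -0.099 and Kit -0.011. With the random block Erg was -0.083 and the second Runx1 probe 0.020. In samples 2 to 5 Mecom was -0.83, Lyl1 0.19, Erg -0.055, Hoxa9 -0.35, Nfil3 0.0068, Dbp 0.28, Tef -0.11, Ehmt2 0.12, Mllt1 0.18, Ccnt1 -0.41, Ly6a 0.071, Kit -0.13, Hbb-b1 1.80, S100a9 0.073 and Map3k14 -0.23.
Leaving out 1 sample moved Mecom from -0.50 to 1.26, Gata2 from -0.10 to 0.13, Mllt3 from -0.40 to 0.27, Lyl1 from -0.31 to 0.059, Erg from -0.26 to 0.25 and Runx1 from -0.18 to 0.084. The ranges were -0.14 to 0.15 for the second Runx1 probe, -0.75 to 0.33 for the second Mllt3 probe, -0.13 to 0.59 for Hoxa9, -0.0031 to 0.33 for Hoxa10, -0.37 to 0.11 for Dbp and -0.081 to 0.23 for Tef. They were -0.42 to 0.072 for Suv39h1, -0.28 to 0.015 for Ehmt2, -0.59 to 0.045 for Mllt1, -0.26 to 0.14 for Mllt10 and -0.22 to 0.43 for Ccnt1. They were -1.50 to 1.37 for Hbb-b1, -0.85 to 0.40 for S100a9 and -0.21 to 0.69 for Map3k14. Dim probes (Mecom, Prdm16, the second Erg and Mllt3 probes) were not well above background on every array.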
